A study of Homo sapiens with 6 samples.

Results

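Kruppel-like factors (KLFs) are zinc finger transcription factors that bind GC-rich and CACCC-type promoter elements. Their messenger RNA was measured in HT29 cells, an established human colorectal adenocarcinoma line, after 24 h with YM155 or with the solvent DMSO. The 10 genes described (KLF3, KLF4, KLF5, KLF6, KLF7, KLF9, KLF10, KLF11, KLF13 and KLF16) are 10 of the 17 KLF genes and of the 26255 genes listed in each library. They were chosen by symbol, and with the knowledge that most of them were higher with YM155. Their difference between treatments is therefore given as a description, without a test. KLF2, KLF8, KLF12 and KLF15, which passed the same filter on low values, stand outside the 10, and 3 of these 4 had a lower mean with YM155.

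Each treatment had 3 libraries of messenger RNA from the same line, with no genetic change named in the labels. YM155, known as a small-molecule inhibitor of the expression of survivin (the product of BIRC5), was used at a dose that is not given in the sources used here. The titles of the treated libraries read YM115, while their treatment label reads YM155. The labels speak of triplicates and not of separate cultures, so p-values measure the spread between these libraries, which may be technical.

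Levels are FPKM (fragments per kilobase of transcript, adjusted for the size of the library), so they can be compared between genes. Their sum was 538478 to 563296 per DMSO library and 678699 to 696067 per YM155 library. Read totals are not in the files. From the steps between low values, 1 read was worth 1.51 to 1.76 times as much FPKM in the YM155 libraries as in DMSO replicate 1, so these were the shallower libraries. Replicates of a group correlated at 0.992 to 0.994 across genes, which are not independent replicates, and libraries of different groups at 0.860 to 0.878. Of 12 colorectal epithelial markers, 10 had a mean of at least 1 FPKM, led by KRT8 and KRT18, while CDX1 and GPA33 stayed under it. No fibroblast, endothelial or leukocyte marker reached that mean, and DCN was listed at 0 in every library. The summed epithelial markers, led by KRT8 and KRT18, were at 5776 to 6058 FPKM with DMSO and 9375 to 10236 FPKM with YM155. Not every marker followed the sum. VIL1 was lower with YM155 (37.9 to 39.2 FPKM with DMSO, 19.8 to 25.0 with YM155). CDX2 was lower too (2.91 to 3.72 and 0.686 to 0.973 FPKM), and the groups of LGALS4, CDX1 and GPA33 overlapped. The part of these markers in the results on KLF genes was not tested. In such bulk RNA, fewer cells that express a gene and less of its RNA per cell cannot be told apart.

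The family is commonly divided by partner protein. KLF4, KLF5, KLF6 and KLF7 belong with KLF2 to a group of mainly activating factors. KLF3 recruits the corepressor CtBP, as do KLF8 and KLF12, and KLF9, KLF10, KLF11, KLF13 and KLF16 recruit the corepressor SIN3A. In the intestine KLF5 is known from the dividing cells of the crypt and KLF4 from the differentiated cells above them, and many KLF genes answer within minutes to serum, stress or TGF-beta.

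KLF proteins bind GC boxes and CACCC boxes, so the members' own promoters were searched for both. RefSeq promoter windows (GRCh38.p14, 250 bases before to 50 after an annotated start) were matched by symbol for 8 of the 10 genes. KLF3 and KLF10 were not matched. The letters GGGCGG, searched on both strands with overlaps counted, were in a window of 7 of these 8 genes (all but KLF9), against 48.3% of all 27305 genes with a window. CACCC was in a window of 4 of the 8 (KLF5, KLF7, KLF11 and KLF13), against 63.11% of all genes. All promoter shares, here and below, are over genes with a window, whether or not they were tested in these cells. Shares among tested genes alone were not taken. The 150 bases before the start are printed for KLF4, KLF13, KLF16 and KLF9 the genes with 1 matched start whose stretch no annotated exon covers. They contrast 3 windows with GC boxes and 1 without, and capitals mark GGGCGG or its complement.
KLF4 (chr9:107489770-107489919, minus strand): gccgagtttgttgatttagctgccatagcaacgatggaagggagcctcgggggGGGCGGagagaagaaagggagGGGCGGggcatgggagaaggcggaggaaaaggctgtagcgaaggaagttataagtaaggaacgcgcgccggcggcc
KLF13 (chr15:31326685-31326834, plus strand): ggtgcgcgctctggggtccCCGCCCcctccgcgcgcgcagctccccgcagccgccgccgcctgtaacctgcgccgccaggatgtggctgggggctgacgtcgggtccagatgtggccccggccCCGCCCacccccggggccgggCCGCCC
KLF16 (chr19:1863580-1863729, minus strand): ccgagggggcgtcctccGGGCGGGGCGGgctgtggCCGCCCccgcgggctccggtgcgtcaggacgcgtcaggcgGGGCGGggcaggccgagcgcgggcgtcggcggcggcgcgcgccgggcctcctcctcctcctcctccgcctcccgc
KLF9 (chr9:70414658-70414807, minus strand): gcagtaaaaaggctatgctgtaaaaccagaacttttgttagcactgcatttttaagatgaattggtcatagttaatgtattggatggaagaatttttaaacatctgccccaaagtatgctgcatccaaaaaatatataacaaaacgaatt

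The 150 bases of KLF16 held 4 GC boxes, those of KLF13 3 and those of KLF4 2. Over the full 300-base window KLF16 had 7 boxes and 86.0% G and C, KLF9 had 0 and 32.7%, and the median over all windows was 58.7%. The E-box CACGTG was in a window of KLF4, KLF6, KLF7 and KLF11, 4 of 8 genes against 8.77% of all genes. A KLF11 window held the cyclic AMP response element TGACGTCA, found for 2.25% of all genes. The AP-1 letters TGANTCA and the antioxidant response core TGACNNNGC were in no window of the 8 genes (9.37% and 16.06% of all genes). TGATGNAA was in a window of KLF7 (4.46% of all genes) and TATAAA in a window of KLF5 (13.99%). Genes with several annotated starts, such as KLF7 with 4, have more windows in which to match, and which start HT29 cells use is not known from the files.

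Within the activating group, KLF6, KLF4 and KLF5 were 6.33-fold, 5.18-fold and 3.26-fold higher with YM155, and KLF7 was near 0 throughout. KLF6, an early-response factor that restrains growth in several epithelia, was at 23.5, 21.3 and 25.3 FPKM in the DMSO libraries. With YM155 it stood at 141, 157 and 145 FPKM, so its lowest treated library was far above its highest control. Its difference on the log2(FPKM + 1) scale was 2.61 (SE 0.07), the largest of the 10 genes on that scale.

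KLF4, a factor of differentiated gut epithelium, was at 14.8, 14.2 and 16.6 FPKM with DMSO. The YM155 libraries held 74.7, 83.4 and 78.0 FPKM (log2 difference 2.30, SE 0.07). The groups of KLF4 did not overlap, and its spread within each group was small beside the gap. KLF5, the crypt factor, was the most abundant member under both treatments, at 114, 98.6 and 119 FPKM with DMSO. It was at 316, 385 and 382 FPKM with YM155 (log2 difference 1.70, SE 0.09). All 3 treated libraries of KLF5 exceeded all controls, and treated replicate 1 was the lowest of them. KLF7, best known from neurons, was at 0.0481, 0.0444 and 0.0161 FPKM with DMSO, against 0, 0.00732 and 0.0168 FPKM with YM155. The KLF7 groups overlapped at a level near 0, it did not pass the filter on low values, and no change can be read from it.

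KLF3, the CtBP-recruiting member, had the smallest difference of the 9 members that passed the filter, close to those of KLF13 and KLF10. KLF13 was the smallest without DMSO replicate 1 or YM155 replicate 1 (0.99 and 1.004), and KLF10 without DMSO replicate 3 (1.005). The level of KLF3 was 23.4, 19.8 and 23.2 FPKM with DMSO, against 39.2, 48.1 and 46.2 FPKM with YM155 (2.01-fold, log2 difference 0.97, SE 0.09). The groups did not overlap, although the treated libraries of KLF3 spread more widely than its controls.

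Of the SIN3A-recruiting members, KLF11 and KLF16 were over 4-fold higher with YM155, and KLF10 and KLF13 were near 2-fold higher. KLF11, a TGF-beta-inducible repressor, was at 7.88, 6.77 and 6.94 FPKM with DMSO, against 31.1, 34.2 and 35.9 FPKM with YM155 (4.69-fold, log2 difference 2.08, SE 0.07). KLF16 was at 9.46, 11.1 and 11.1 FPKM with DMSO, against 46.9, 48.3 and 48.0 FPKM with YM155 (4.53-fold, log2 difference 2.08, SE 0.06). Both genes were below the levels of KLF13 with DMSO and above them with YM155.

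KLF10, the other TGF-beta-inducible early gene of the family, was second in abundance with DMSO, at 35.8, 29.9 and 29.004 FPKM. It reached 62.5, 70.7 and 67.1 FPKM with YM155 (2.12-fold, log2 difference 1.06, SE 0.08). KLF13, known from lymphocyte gene regulation, was at 13.3, 13.8 and 13.96 FPKM with DMSO, against 28.9, 29.2 and 27.8 FPKM with YM155 (2.09-fold, log2 difference 1.01, SE 0.05). The groups were apart for both, and of the 9 members that passed the filter KLF13 varied least between replicates on the log2 scale. KLF9, which glucocorticoids and oxidative stress induce in other cells, was scarce with DMSO, at 0.410, 0.277 and 0.441 FPKM. With YM155 it was at 3.67, 4.12 and 3.51 FPKM, 10.01-fold higher by mean FPKM (log2 difference 1.79, SE 0.09). KLF9 passed the filter only through the treated libraries, so a difference was built into its selection.

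In all, 9 of the 10 genes had every treated library above every control, as had 44.4% of the 12035 genes tested. That share is given for scale and nothing is read from it, since the members were chosen on this contrast. Upper-quartile, sum and quantile scaling moved the median of all genes by -0.22, -0.28 and -0.11. Under them the 9 members stayed positive, from 0.62 (KLF3, quantile) to 2.37 (KLF6, upper-quartile). Of all calls 51.5% were higher on the deposited scale (5251 higher, 4940 lower), against 40.7% with upper-quartile scaling (4193 and 6119) and 37.4% with sum scaling (3830 and 6422).

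**Figure D1:**
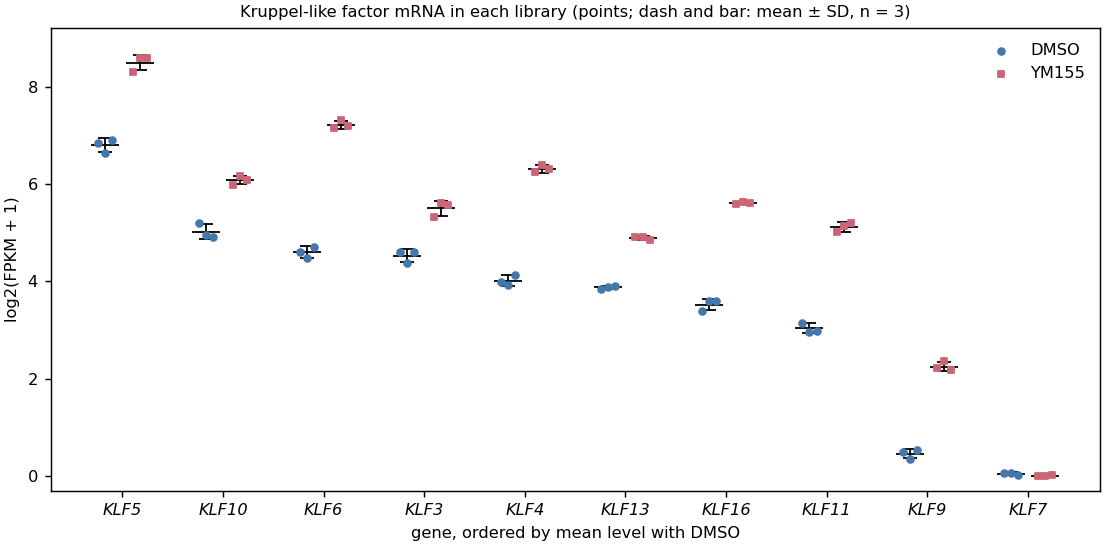
Level of each KLF gene on the log2(FPKM + 1) axis in the 3 DMSO libraries (circles) and the 3 YM155 libraries (squares), with mean and SD; genes are ordered by their mean with DMSO. The squares lie above the circles for 9 genes, and KLF7 lies at the bottom of the axis under both treatments.

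The order of the family differed between the treatments. With DMSO it ran KLF5, KLF10, KLF6, KLF3, KLF4, KLF13, KLF16, KLF11, KLF9 and KLF7. With YM155 it ran KLF5, KLF6, KLF4, KLF10, KLF16, KLF3, KLF11, KLF13, KLF9 and KLF7. Neighbours in the order overlapped only for KLF6 and KLF3 with DMSO and for KLF16 and KLF3 with YM155. The libraries of all other neighbours were separate within each treatment.

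The summed FPKM of the 10 genes was 234.7 ± 16.4 with DMSO and 813 ± 60.9 with YM155 (SD, n = 3), 3.46-fold higher. Shares of that sum do not depend on the scaling of a library as a whole. KLF5 held 47.1% ± 1.38 of it with DMSO and 44.3% ± 1.73 with YM155, and its libraries overlapped between the treatments (45.7% to 48.4% and 42.5% to 45.8%). KLF6 had the largest gain in share, from 9.95% ± 0.319 to 18.2% ± 0.815. KLF4 went from 6.48% ± 0.357 to 9.70% ± 0.336. KLF10 went the other way, from 13.5% ± 1.498 to 8.22% ± 0.169, and KLF3 from 9.44% ± 0.231 to 5.47% ± 0.176. Both thus held less of the summed message of the 10 genes although their own FPKM was higher.

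**Figure D2:**
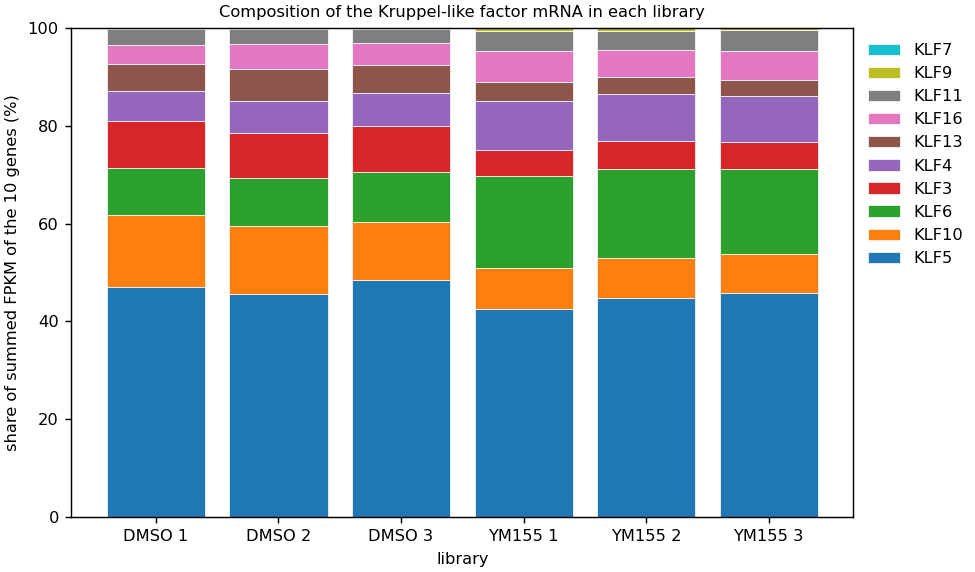
Share of each gene in the summed FPKM of the 10 KLF genes (percent, stacked to 100) in each of the 6 libraries. KLF5 is the lowest and widest block everywhere, and the KLF6 block covers 9.68% to 10.3% of the DMSO bars and 17.4% to 19.0% of the YM155 bars.

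Ratios between genes of the same library are likewise free of that scaling. KLF5 exceeded KLF4 by 7.73, 6.93 and 7.15 times in the DMSO libraries and by 4.23, 4.62 and 4.89 times with YM155. These crypt and differentiation factors thus stood closer together in each treated library than in any control. The KLF6 to KLF3 ratio was 1.06 ± 0.0456 with DMSO and 3.34 ± 0.245 with YM155. Within the SIN3A-recruiting group, KLF11 over KLF10 was 0.229 ± 0.00970 with DMSO and 0.506 ± 0.0259 with YM155. KLF16 over KLF13 crossed from 0.768 ± 0.0511 to 1.67 ± 0.0543.

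Replicates differed in the same direction for several members. Of the 9 that passed the filter, 6 were lowest in DMSO replicate 2 (KLF3, KLF4, KLF5, KLF6, KLF9 and KLF11) and 7 were lowest in YM155 replicate 1. YM155 replicate 2, whose estimated depth was the highest of the treated libraries, was highest for 8 of the 9. DMSO replicate 3, whose estimated depth was the lowest of the controls, was highest for 6 of the 9. The same counts over all tested genes were not made, so this order cannot be called particular to the members. Whether depth has a part in it was not tested. Leaving out any 1 library kept the log2 differences of the 9 between 0.90 (KLF3, without DMSO replicate 2) and 2.67 (KLF6, without DMSO replicate 3).

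Genes with a profile like that of KLF6 were sought among all tested genes. By Euclidean distance between centred log2(FPKM + 1) values over the 6 libraries, the nearest were ERRFI1, a feedback inhibitor of the EGF receptor (distance 0.0943), PPP1R15B, a subunit of an eIF2alpha phosphatase (0.0960), and PHLDA2 (0.141). ERRFI1 went from 45.0 ± 1.78 to 282 ± 16.3 FPKM. PPP1R15B was at 16.7 ± 0.886 FPKM with DMSO, against 105 ± 5.23 FPKM with YM155, and PHLDA2 at 91.99 ± 3.59 and 541 ± 29.2 FPKM. The log2 differences of the 3 genes were 2.62, 2.58 and 2.54, against 2.61 for KLF6. With close replicates in each group, the distance mainly reflects this like difference between treatments, on which the members were chosen.

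The messages of the members were searched for AU-rich words, which RNA-binding proteins such as ZFP36 recognise in unstable messages. ATTTA was in the longest annotated 3′ UTR (GENCODE 29) of 9 of the 9 members that passed the filter, against 72.5% of 10751 tested genes with such a region. Their untranslated regions were also longer, with a median of 2329 bases against 1322. Per kilobase the medians were 2.22 and 1.64 words. KLF13 (0.893) and KLF16 (0.971) were below the median of the tested genes, and KLF6 (1.69) was close to it. The other members that passed the filter were above it. The longer word TTATTTATT was in the untranslated regions of KLF5 and KLF16, 2 of 9 against 8.9% of tested genes.

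The other KLF genes and the related SP factors did not all move with the members. Of the 10 tested outside the members, 6 were called higher and 3 lower by limma, and 1 did not pass (median log2 difference 0.81). Here, as for each list that follows, the counts stand beside 43.6% of all tested genes called higher, 41.0% lower and a median of 0.02. Most tested cofactors, ubiquitin enzymes and immediate-early genes below had a mean of at least 5 FPKM. Of the 8575 genes with that mean, 4419 were called higher and 2922 lower, with a median of 0.19. Of these 10 genes KLF2 passed the filter only through the treated libraries, and KLF8 and SP5 only through the DMSO libraries, so a difference was built into their selection and no p is given for them. With a mean of at least 5 FPKM 4 of the 10 were left, and all 4 were called higher, beside 4419 of all 8575 genes. Of these 4, SP6 reached that mean only through the treated libraries (1.72, 2.38 and 2.35 FPKM with DMSO). A difference was thus built into the selection of SP6 at this filter, and the count shows no direction of the list. KLF2, an activating factor of endothelium and lymphocytes, was at 0.402 ± 0.0415 FPKM with DMSO, against 2.08 ± 0.406 FPKM with YM155 (log2 difference 1.13, SE 0.11). KLF8, which recruits CtBP like KLF3, was at 1.34 ± 0.147 and 0.372 ± 0.0870 FPKM (log2 difference -0.77, SE 0.09). The third CtBP partner, KLF12, was called lower (2.93 ± 0.135 and 2.27 ± 0.180 FPKM, adjusted p = 0.0087), but quantile normalization put its log2 difference at 0.00626 in place of -0.27 and ended the call (adjusted p = 0.94). KLF15 did not pass, at 1.48 ± 0.282 and 1.18 ± 0.0558 FPKM (adjusted p = 0.0999). It was called lower without DMSO replicate 1 (log2 difference -0.26, adjusted p = 0.035) and with upper-quartile (-0.33) and sum (-0.37) scaling, and was at 0.14 with quantile normalization. KLF1 and KLF17 were under 0.05 FPKM in every library, and KLF14 was listed at 0 in all 6.

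SP factors bind the same GC boxes. SP1, the general activator of GC-box promoters, rose 2.24-fold from 23.5 ± 0.543 to 52.6 ± 2.42 FPKM (adjusted p = 5.3e-08). SP2 rose 3.45-fold, SP3 1.61-fold, SP4 2.44-fold and SP6, an epithelial factor, 3.72-fold. SP5, a target of Wnt signalling, was at 2.46 ± 0.340 FPKM with DMSO, against 0.621 ± 0.179 FPKM with YM155 (log2 difference -1.10, SE 0.11). Among 345 tested genes with a ZNF symbol, a much larger set of zinc finger factors, 108 were called higher and 179 lower, with a median log2 difference of -0.27. The balance was the other way among the 143 with a mean of at least 5 FPKM, of which 73 were called higher and 47 lower. At that filter 4419 of all 8575 genes were called higher and 2922 lower. Higher calls also led among all 12035 tested genes (5251 higher and 4940 lower), so the balance of all genes did not turn.

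**Figure D3:**
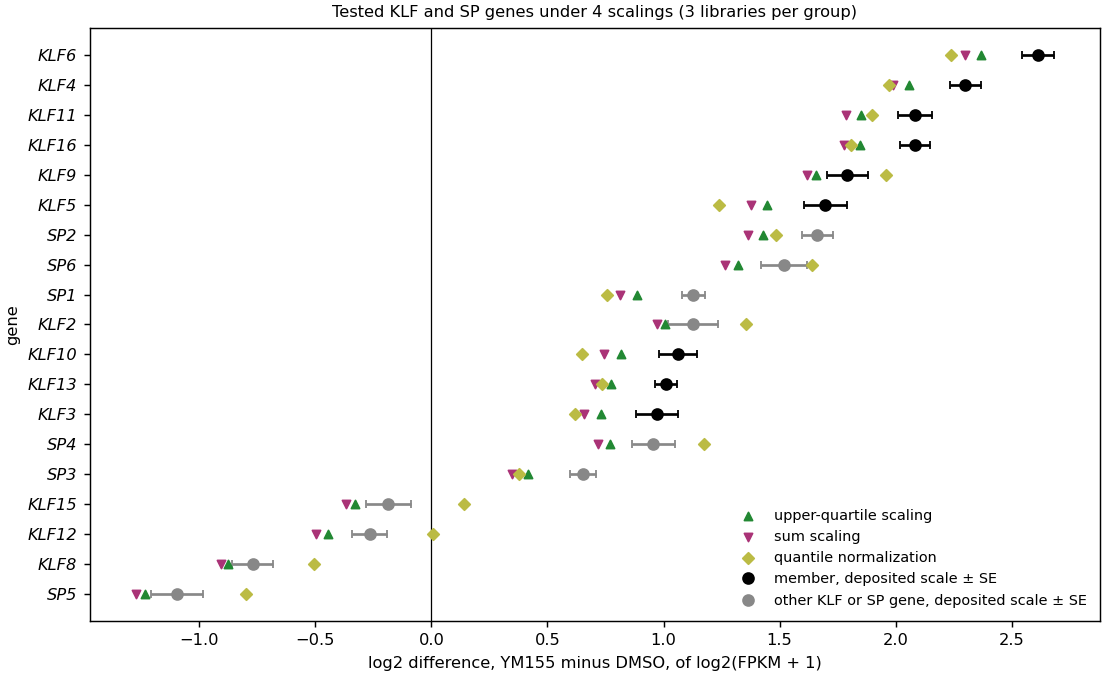
Log2 difference (YM155 minus DMSO, of log2(FPKM + 1)) of the 19 tested KLF and SP genes: circles with SE are on the deposited scale (black for members, grey for others), and small symbols give 3 other scalings. All members lie right of 0 under each scaling, SP5 and KLF8 lie left of it, and KLF12 and KLF15 cross it with quantile normalization.

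Cofactors of KLF proteins were mostly higher: of 14 tested corepressor and coactivator genes 10 rose and 4 fell (median log2 difference 0.60). RCOR1, a corepressor scaffold, rose 5.92-fold from 5.02 ± 0.264 to 29.7 ± 1.32 FPKM (adjusted p = 2.2e-09). The acetyltransferase CREBBP rose 3.84-fold (adjusted p = 6.3e-09). CTBP1 and CTBP2, partners of KLF3, rose 1.49-fold and 1.48-fold, but quantile normalization ended the call of CTBP1 (log2 difference 0.13 in place of 0.56, adjusted p = 0.052 by limma). SIN3A, partner of the KLF9 to KLF16 group, rose 1.59-fold, and its paralog SIN3B 1.86-fold. The 4 that fell, named after their values were seen, were SAP30 (log2 difference -0.49), HDAC2 (-0.47), SUDS3 (-0.25) and HDAC1 (-0.20). HDAC1 and HDAC2 are histone deacetylases.

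Enzymes that attach or remove ubiquitin on KLF proteins showed 8 of 10 tested genes higher and 1 lower (median log2 difference 0.93). SMURF1, a ligase of the SMAD pathway, rose 8.11-fold from 14.7 ± 0.304 to 119 ± 0.895 FPKM (adjusted p = 1.4e-10). FBXW7, the F-box protein that marks KLF5 for destruction, rose 4.70-fold from 7.23 ± 0.724 to 33.9 ± 1.44 FPKM (adjusted p = 1.3e-08). SMURF2 rose 3.98-fold (adjusted p = 2.7e-08). BTRC did not pass, at 3.70 ± 0.187 and 3.56 ± 0.343 FPKM (adjusted p = 0.58), and upper-quartile and sum scaling called it lower (log2 differences of -0.24 and -0.30).

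Immediate-early genes, to which KLF4, KLF6 and KLF10 are often counted, went both ways, with 7 of 16 tested genes higher and 7 lower (median log2 difference -0.04, range -2.19 to 3.42). SRF, the serum response factor, rose 7.43-fold from 9.93 ± 0.460 to 73.8 ± 2.68 FPKM (adjusted p = 4.4e-10). FOSL1 rose 7.84-fold (adjusted p = 9.6e-10), and ZFP36 rose 3.58-fold from 113 ± 5.48 to 405 ± 17.7 FPKM (adjusted p = 3.7e-09). EGR1, FOS and FOSB, named after their values were seen, fell to 0.218, 0.231 and 0.262 of their DMSO levels. EGR1 was at 206, 176 and 180 FPKM with DMSO, against 48.97, 31.5 and 41.96 FPKM with YM155, and its groups did not overlap. The member of the list with the largest rise, also named after its values were seen, was the stress-induced factor ATF3, 11.05-fold higher (adjusted p = 8.8e-09). JUN did not pass (102 ± 6.91 and 106 ± 5.56 FPKM, adjusted p = 0.42), and its log2 difference of 0.05 was -0.20, -0.27 and -0.38, each past the threshold, with upper-quartile, sum and quantile scaling.

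In the TGF-beta and SMAD list, which holds inputs of KLF10 and KLF11, 10 of 14 tested genes were called higher and 3 lower (median log2 difference 0.65), and 1 of the 14 passed the filter only through the treated libraries. SMAD3, a receptor-activated SMAD, rose 3.77-fold from 17.3 ± 0.685 to 65.3 ± 2.17 FPKM (adjusted p = 2.8e-09). ID2, an inhibitor of helix-loop-helix factors, fell from 50.1 ± 2.77 to 5.41 ± 0.431 FPKM (log2 difference -3.00, adjusted p = 1.1e-09). TGFBR1 did not pass, at 2.92 ± 0.459 and 2.38 ± 0.152 FPKM (adjusted p = 0.076). It was called lower with upper-quartile (log2 difference -0.39) and sum (-0.44) scaling and without DMSO replicate 2 (-0.31), and was at 0.06 with quantile normalization.

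Genes that KLF proteins are known to activate were read as 2 lists. Of the 12 genes induced by KLF4 or KLF6, 7 were tested, 5 were called higher and 1 lower. Of the 5, PLAU, KRT13 and SPRR1A passed the filter only through the treated libraries, so the count shows no direction of the list. With a mean of at least 5 FPKM only 3 of the 7 were left, too few to show one. Of these, 2 were called higher and 0 lower, beside 4419 of all 8575 genes called higher. CDKN1A, the cell cycle inhibitor p21, rose 7.89-fold from 8.57 ± 0.0947 to 67.6 ± 2.66 FPKM (adjusted p = 2.7e-10). CDH1, encoding E-cadherin, rose 1.63-fold (adjusted p = 3.8e-07). PLAU, encoding urokinase, was at 0.343 ± 0.101 FPKM with DMSO, against 4.94 ± 0.385 FPKM with YM155. CDKN1B did not pass (16.8 ± 1.90 and 16.1 ± 0.592 FPKM, adjusted p = 0.55). It was called lower with upper-quartile (log2 difference -0.29), sum (-0.36) and quantile (-0.31) scaling. ALPI, the intestinal alkaline phosphatase that KLF4 activates in enterocytes, was listed at 0 in 5 libraries and at 0.0182 FPKM in YM155 replicate 2.

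The KLF5 list was divided, with 4 of 8 tested genes higher and 4 lower (median log2 difference 0.03), while KLF5 itself was 3.26-fold higher. EGFR rose 6.51-fold from 5.15 ± 0.348 to 33.6 ± 2.33 FPKM (adjusted p = 3.7e-09), and the growth factor gene PDGFA rose 5.11-fold (adjusted p = 1.6e-08). BIRC5, encoding survivin, fell from 21.8 ± 0.940 to 6.36 ± 0.671 FPKM (adjusted p = 6.8e-08). The other 3 that fell, named after their values were seen, were the cell cycle genes CCNB1 (log2 difference -1.495), CDK1 (-0.94) and CCND1 (-0.45).

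**Figure D4:**
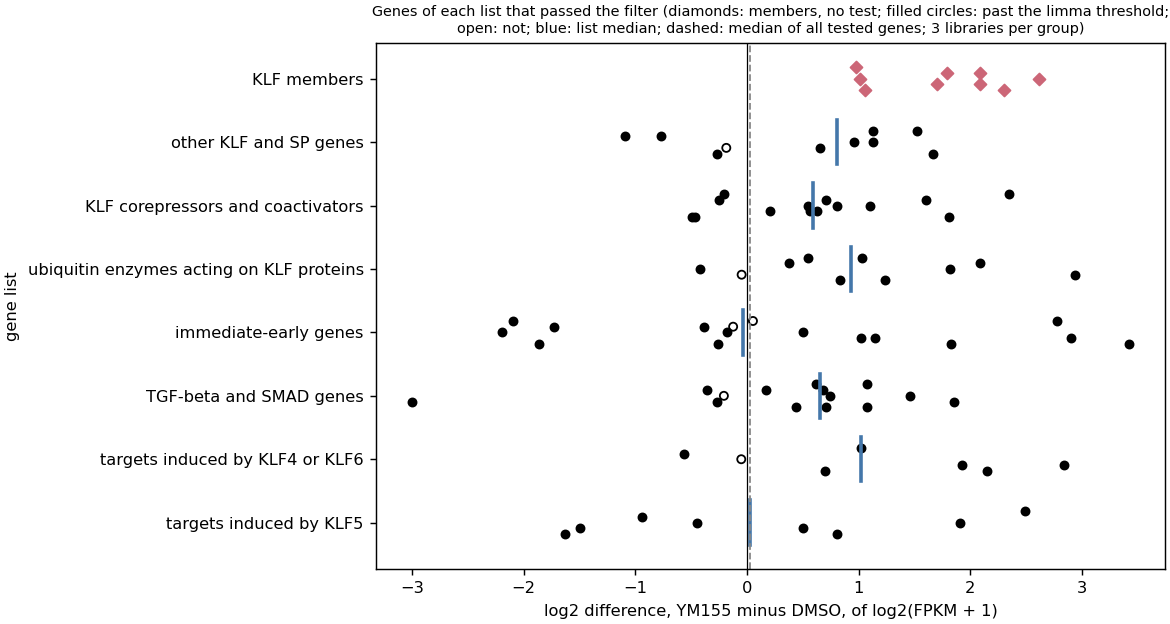
Log2 difference (YM155 minus DMSO, of log2(FPKM + 1)) of each gene by list that passed the filter; diamonds are the members, which have no test, filled circles passed the limma threshold, open circles did not, blue bars are medians of the tested lists and the dashed line is the median of all tested genes (0.02). The 9 members lie between 0.97 and 2.61, immediate-early genes spread to both sides, and 4 of the 8 KLF5 targets lie on each side of 0.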

How the data were processed

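The authors deposited FPKM values for 26255 genes in each of 6 libraries (per the file headers), made from stranded mRNA libraries (per the labels' protocols). The submitters' processing notes name Cufflinks 2.2.1 with Cuffdiff, TopHat2 2.1.1 with Bowtie2 2.3.5.1, SAMtools 1.2 and the build hg19. The annotation, the read totals and whether counting used strand are not given, so KLF3 and its antisense gene may share reads. No hg19 positions were used, and promoter positions are RefSeq's.

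Genes with at least 1 FPKM in at least 3 libraries were tested (12035) as log2(FPKM + 1), which understates the change of scarce genes. Limma 3.58.1 in R 4.3.3 (trend, two-sided, Benjamini-Hochberg over all tested genes, threshold 0.05) compared the groups without a replicate block. The code was also run on simulated data. Far fewer genes differed there than were called here, so that run does not bear on these calls. Folds are ratios of mean FPKM. Members and lists were chosen with earlier results of these data known. Named genes are all members, tested KLF and SP genes, up to 3 members of each list with the lowest p, the most abundant that did not pass, and the 3 nearest to the leading member. Any other was named after its values were seen. Some genes that this rule names are not reported here. Alternatives were pseudocounts, filters, scalings, eBayes settings, a block, leaving out each library and a stricter threshold. Protein sequences were not analysed here.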

Additional observations from a re-analysis of the deposited data

How the results depend on the processing

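The differences of the members that passed each filter were positive under each alternative but no filter, which let in KLF7 (-0.0396), and as chosen on this contrast they support nothing. A mean of at least 5 FPKM, which tests fewer genes (8575), left 4419 genes called higher and 2922 lower, so that 60.2% of calls were higher in place of 51.5%. It turned the balance of the ZNF genes (73 higher and 47 lower), and left 0 other KLF and SP genes lower, and 2 higher and 0 lower KLF4 or KLF6 targets. The lower count of those targets was 2 without a filter and under each of the upper-quartile, sum and quantile scalings. Lower ubiquitin enzymes numbered 2 with upper-quartile and sum scaling, and lower TGF-beta and SMAD genes 5 with sum scaling. The causes were not tested. Signs turned for JUN (-0.20 with upper-quartile, -0.27 with sum and -0.38 with quantile scaling), for KLF12 (0.00626), KLF15 (0.14), BTRC (0.15) and TGFBR1 (0.0603) with quantile normalization, and, leaving out a library, for CDKN1B (-0.1238 to 0.0289, positive without DMSO replicate 3) and BTRC (-0.0958 to 0.0121, positive without YM155 replicate 1). With a replicate block 5147 genes were called higher and 4861 lower. Same-numbered libraries had correlations of deviations of -0.071, -0.148 and -0.125, which gave no sign that the numbers pair them. With 3 libraries per group this cannot exclude a pairing. Depth limits KLF7, and a pseudocount of 0.1 put KLF9 at 3.04.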

Other observations

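The antisense gene KLF3-AS1 was at 0.965, 0.793 and 0.679 FPKM with DMSO, against 0.784, 0.387 and 0.562 FPKM with YM155, so its groups overlapped while those of KLF3 did not.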
